A study of Mus musculus with 10 samples.

Results

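Chromatin loops that were called after IL-4 in every IL-4 exposed group of mouse bone marrow-derived macrophages, and in neither group that had never met IL-4, are described here. A loop here is a pair of genomic bins of 10 kb that was called as such in a deposited list. The caller and threshold are not given in the sources used here. The calls rest on Hi-C, which ligates and then sequences fragments of DNA that were near one another in the fixed nucleus. The loops were chosen from the M2[IL-4] list. A loop was taken when both its anchors lay at most 2 bins, that is 20 kb, from those of a loop in the M2p[pIL-4] list and of a loop in the pIL-4 + IFNG list, and when no loop of the M0[CTR] or IFNG list lay that close. This rule took 836 of the 58117 autosomal loops of the M2[IL-4] list, or 1.44% (95% Wilson interval 1.34 to 1.54). The calls themselves chose these loops, so their presence in 3 lists and absence from 2 is their definition and not a finding.

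The cells came from bone marrow of wild type female C57BL/6 mice of 2 to 3 months and were differentiated with M-CSF at 20 ng/ml, which all groups shared. Treatments began on day 6. M0[CTR] macrophages received no further cytokine, M2[IL-4] macrophages received IL-4 at 20 ng/ml for 24 h, and M2p[pIL-4] macrophages received the same IL-4, were washed and rested for 24 h. IFNG macrophages never met IL-4 and received 20 ng/ml of IFNG for 3 h, and pIL-4 + IFNG macrophages received that IFNG after IL-4, washing and rest. Each of the 5 groups had 2 replicates, merged in 1 loop list per group, so the spread between replicates is unknown and conditions could not be tested against each other. The autosomal lists ran from 53273 loops in M0[CTR] and 54869 in IFNG to 58117 in M2[IL-4], 66827 in pIL-4 + IFNG and 67532 in M2p[pIL-4], and they held between 2170953 and 2781666 contacts. A loop that is missing from a list was not called there, and the files used give no contact count for it.

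As background, many loops are held by cohesin, a ring complex that extrudes chromatin until it meets the DNA-binding protein CTCF, most often at a pair of CTCF sites that point towards each other. Other loops bring enhancers to promoters. IL-4 acts through its receptor and the JAK kinases on the transcription factor STAT6, which binds a palindromic site with a gap of 4 bases and switches on genes of alternative (M2) macrophage polarization, such as the transcription factors Egr2, Irf4 and Klf4. IFNG is a cytokine of host defence that activates macrophages.

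The sequences that follow show what lies in the anchors of the loops described below. They were read from the GRCm38 genome, 5′ to 3′ on the strand given, and were chosen because they sit in the largest groups of chosen loops or at the start of a named gene. In the first set, capitals mark the match to the CTCF consensus, with up to 1 mismatch. The first 4 lie in the anchors of the loops that reach across Egr2, the next in an anchor of the short loops to the right of Egr2 and Ado, the next pair in the anchors of the loop at Ear2, and the last 3 in an anchor upstream of the coagulation factor genes F7 and F10. The Egr2 matches and the left Ear2 match overlap no annotated gene, the right Ear2 match lies in the long noncoding RNA gene Gm49101, and those near F7 lie in introns of Mcf2l.
Egr2 left anchor 1, chr10:67425562-67425611, plus strand: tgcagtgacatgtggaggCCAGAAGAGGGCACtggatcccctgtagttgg
Egr2 left anchor 2, chr10:67435099-67435148, minus strand: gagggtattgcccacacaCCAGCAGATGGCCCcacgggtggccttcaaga
Egr2 right anchor 1, chr10:67859046-67859095, minus strand: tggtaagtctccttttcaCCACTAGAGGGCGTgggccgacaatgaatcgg
Egr2 right anchor 2, chr10:67871967-67872016, plus strand: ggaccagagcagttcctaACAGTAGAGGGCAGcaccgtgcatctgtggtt
Short Egr2 loop, chr10:67624648-67624697, minus strand: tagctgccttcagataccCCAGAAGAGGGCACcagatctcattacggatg
Ear2 left anchor, chr14:43925167-43925216, plus strand: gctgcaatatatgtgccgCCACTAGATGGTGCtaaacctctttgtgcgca
Ear2 right anchor, chr14:44100216-44100265, minus strand: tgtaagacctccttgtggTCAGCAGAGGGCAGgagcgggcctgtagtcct
F7 upstream match 1, chr8:12991433-12991482, plus strand: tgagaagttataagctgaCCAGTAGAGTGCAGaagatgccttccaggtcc
F7 upstream match 2, chr8:12992467-12992516, plus strand: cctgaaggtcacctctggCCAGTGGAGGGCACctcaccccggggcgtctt
F7 upstream match 3, chr8:12996497-12996546, plus strand: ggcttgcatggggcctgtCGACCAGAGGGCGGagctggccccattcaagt

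In the second set, capitals mark the STAT6 motif, TTCNNNNGAA, which reads the same on both strands. The first 3 lie in the left bin of the short Egr2 loop and the next pair in the anchor that holds the Klf4 start. None of them overlaps an annotated gene.
Short Egr2 loop, match 1, chr10:67610761-67610806, plus strand: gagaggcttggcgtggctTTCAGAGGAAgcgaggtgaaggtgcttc
Short Egr2 loop, match 2, chr10:67611223-67611268, plus strand: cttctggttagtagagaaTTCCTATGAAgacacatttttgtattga
Short Egr2 loop, match 3, chr10:67618727-67618772, plus strand: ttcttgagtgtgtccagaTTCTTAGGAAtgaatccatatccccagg
Klf4 anchor, match 1, chr4:55533950-55533995, plus strand: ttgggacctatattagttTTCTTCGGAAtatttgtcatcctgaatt
Klf4 anchor, match 2, chr4:55539523-55539568, plus strand: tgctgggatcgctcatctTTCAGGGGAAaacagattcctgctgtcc

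The third set gives the 250 bases before the RefSeq start (GRCm38.p6) of 3 genes whose start lay in an anchor of a chosen loop. Sgsm3 was included because it held the STAT6 motif, in capitals, while Klf4 and Proz held none in this window.
Klf4 promoter, chr4:55532476-55532725, minus strand: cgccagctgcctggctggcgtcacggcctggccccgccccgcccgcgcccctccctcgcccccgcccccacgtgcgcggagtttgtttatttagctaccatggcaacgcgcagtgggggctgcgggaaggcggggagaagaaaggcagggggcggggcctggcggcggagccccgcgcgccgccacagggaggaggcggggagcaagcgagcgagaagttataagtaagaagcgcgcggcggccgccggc
Proz promoter, chr8:13060658-13060907, plus strand: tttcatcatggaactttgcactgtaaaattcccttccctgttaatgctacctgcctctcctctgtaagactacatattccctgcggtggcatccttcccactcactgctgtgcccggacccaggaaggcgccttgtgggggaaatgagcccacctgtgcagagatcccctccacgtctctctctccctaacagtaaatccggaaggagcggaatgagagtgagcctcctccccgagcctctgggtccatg
Sgsm3 promoter, chr15:80977515-80977764, plus strand: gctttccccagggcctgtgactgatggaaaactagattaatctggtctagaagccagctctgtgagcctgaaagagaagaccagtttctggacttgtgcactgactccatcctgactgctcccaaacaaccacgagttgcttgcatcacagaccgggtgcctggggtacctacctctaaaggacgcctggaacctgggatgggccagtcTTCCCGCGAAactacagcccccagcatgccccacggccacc

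The first question was how the IL-4 restricted pattern compared with the other ways in which a loop could be shared. Of 58117 loops of the M2[IL-4] list, 45530 (78.3%) had a match in all 5 lists and 2599 (4.47%, 4.31 to 4.64) had a match in no other list. The 836 loops were the most frequent of the 6 ways of being called in exactly 3 lists, with 29.4% of 2840 such loops. The next were 607 loops shared with M0[CTR] and M2p[pIL-4], and the fewest were 193 loops shared with M0[CTR] and IFNG. This order depended on the length of the lists. When every list was shortened to 53273 loops, the IL-4 exposed pattern held 533 loops (19.1% of 2797) and the pattern with M0[CTR] and M2p[pIL-4] held 633, the most of the 6. The opposite set, M0[CTR] loops matched in IFNG and in none of the 3 IL-4 exposed lists, held 317 loops.

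**Figure D1:**
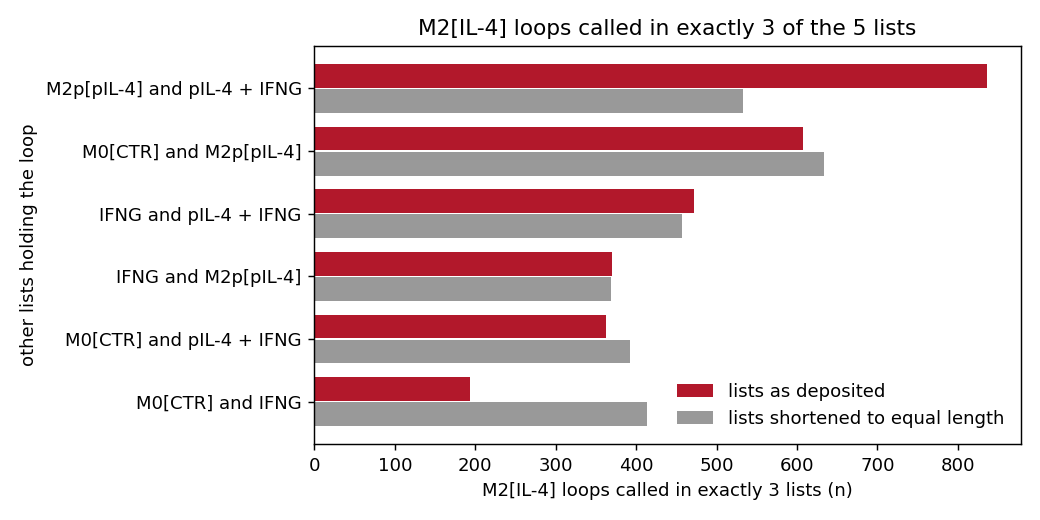
M2[IL-4] loops called in exactly 3 of the 5 lists, by the other lists that held them (number of loops on the x axis), with the lists as deposited in red and with every list shortened to 53273 loops in grey. The IL-4 exposed pattern fell from 836 to 533 loops and lost its first place to the pattern with M0[CTR] and M2p[pIL-4], which held 607 and 633.

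Among the 5031 M2[IL-4] loops with no match in either never exposed list, 1702 (33.8%, 32.5 to 35.1) had a match in M2p[pIL-4], after washout. Of these 1702 loops, the 836 were the 49.1% (46.7 to 51.5) that were also matched after the later IFNG. The 3329 loops not matched in M2p[pIL-4] were matched after IFNG in 21.9% (20.6 to 23.4). Loops that M0[CTR] or IFNG also held were matched in both other exposed lists in 92.1% of 53086 cases. These shares describe the calls the rule used.

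The match was rarely exact. M2p[pIL-4] called 193 of the 836 loops (23.1%) in the very same bins, 346 (41.4%) exactly 1 bin off and 297 (35.5%) exactly 2 bins off. In pIL-4 + IFNG the numbers were 185, 344 and 307. Only 87 loops (10.4%) were called in the same bins in all 3 IL-4 exposed lists, against 46.7% of the loops matched in all 5 lists. On the other side of the rule, 439 loops (52.5%) had a never exposed loop exactly 3 bins away, just past the limit. Another 210 had one 4 or 5 bins away, 114 had one 6 to 10 bins away and 73 (8.73%) had none within 10 bins. Among the 49718 M2[IL-4] loops matched in both other exposed lists, 2252 had their nearest never exposed loop exactly 2 bins away and were left out by the rule. They had a median of 27 contacts, as did the 439 loops just inside. The share called in the same bins of all 3 exposed lists was 7.06% for loops 3 bins from a never exposed loop and 19.2% for those with none within 10 bins.

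The chosen loops had a median span of 175 kb (95% interval 160 to 190, quartiles 60 and 350), against 160 kb for all M2[IL-4] loops (quartiles 80 and 310). Both ends of the range were more common than in the whole list, as they also were among M2[IL-4] loops matched in no other list, with 10.2% in adjacent bins and 36.9% at 500 kb or more. Adjacent bins made up 10.5% of the chosen loops (8.62 to 12.8) and 5.66% of all (5.48 to 5.85), and loops of 500 kb or more made up 15.1% (12.8 to 17.7) and 11.1% (10.8 to 11.4). The opposite set was longer, with a median of 390 kb (340 to 450) and 39.4% at 500 kb or more. The median count of a chosen loop was 27 contacts in M2[IL-4] (quartiles 18 and 47), against 32 for all. Relative to the median at the same span, the chosen loops stood at 0.923 (0.909 to 0.938) and loops matched in all 5 lists at 1.03. Values below 1 were not particular to the chosen loops. M2[IL-4] loops matched in no other list stood at 0.885 (0.875 to 0.889) and the opposite set, within its own list, at 0.905 (0.882 to 0.923). In M2[IL-4], 99.0% of the chosen loops had more contacts than the lowest count that M0[CTR] called at the same span, and 39.8% (36.6 to 43.2) reached the median that M0[CTR] called there. The corresponding shares for IFNG were 98.7% and 33.5%. The lowest count is the smallest of all calls at a span and so a weak limit, and the same shares were not taken for all M2[IL-4] loops. They do not show whether a chosen loop would have been called in the never exposed lists.

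Contacts of the chosen loops were compared between the IL-4 exposed groups only at bin pairs called in both lists of a pair. A bin pair that was not called in one list has no count there, so these ratios cannot show a loss below calling. From M2[IL-4] to M2p[pIL-4], the median log2 contact ratio was 0.008 (95% interval 0.000 to 0.042) over 193 bin pairs, 98 of which were higher and 76 lower. All 29730 bin pairs called in both gave 0.032 (0.028 to 0.036). None of the 193 passed a 1.5-fold difference, which allows a share of up to 1.55%, while 2.10% of all these bin pairs were past it upwards and 1.39% downwards. The 193 pairs held 12292 contacts in M2[IL-4] and the 29730 held 1409937. Counts per pair, on which counting noise depends, were not matched here or in the comparisons below, so the shares past 1.5-fold are not directly comparable. From M2[IL-4] to pIL-4 + IFNG, the median was 0.000 (0.000 to 0.045) over 185 bin pairs, and 1 was past 1.5-fold, downwards, against 2.01% upwards and 1.75% downwards of all 29031. From M2p[pIL-4] to pIL-4 + IFNG, the median was 0.010 (-0.029 to 0.044) over 87 bin pairs, and 1 was past 1.5-fold, upwards, against 1.41% upwards and 2.10% downwards of all 32273. Both single loops rest on few contacts. The first, on chromosome 5 between 139920001 to 139930000 in Elfn1 and 140300001 to 140310000 in Mad1l1, a gene of the spindle checkpoint, held 29 contacts in M2[IL-4] and 18 in pIL-4 + IFNG, a ratio of 0.621 (exact 95% interval 0.325 to 1.16). The second, on chromosome 10 from 87020001 to 87510000, held 10 after washout and 16 after the later IFNG, a ratio of 1.6 (0.683 to 3.94).

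Of the loops called in the same bins of all 3 IL-4 exposed lists, the 10 with the most contacts in their lowest list, 1 per group of neighbouring loops, all joined adjacent bins. This ranking used raw contacts, which fall with span, and so favours adjacent bins. Distances to gene starts are given from the centre of a bin. The highest, on chromosome 10 between 67610001 to 67620000 and 67620001 to 67630000, lies outside protein-coding genes, with the Ado start 66 and 76 kb away. It held 233 contacts after IL-4, 221 after washout and 216 after the later IFNG, and the nearest never exposed loops were 7 bins off in M0[CTR] and 5 in IFNG. On chromosome 14, the loop from 70050001 to 70070000, next to Pebp4 and 12 kb from the start of the transcription factor gene Egr3, held 220, 221 and 209 contacts in the same order. Loops of both never exposed lists lay 3 bins from it, just past the limit of the rule. In both loops the 3 counts lay within each other's counting intervals.

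On chromosome 9, the loop from 108830001 to 108850000 inside Celsr3, which encodes an atypical cadherin, held 208, 217 and 229 contacts in that order. On chromosome 4, the loop from 135050001 to 135070000, 55 kb from the start of the transcription factor gene Runx3, held 185, 200 and 206. On chromosome 17, the loop from 56110001 to 56130000 joined the bin with the start of Plin5, a lipid droplet coat protein, to the bin with the start of the secreted glycoprotein gene Lrg1, and held 155, 155 and 159. It too lay 3 bins from loops of both never exposed lists. The loops at Ppp6r3, Arrdc1, Sgsm3, Ksr1 and Dcaf7 held 151 to 170 contacts after IL-4, 160 to 184 after washout and 149 to 190 after the later IFNG. Ksr1 encodes a scaffold of the MAP kinase cascade. The Sgsm3 start bin is the one whose promoter, shown above, held the STAT6 motif 41 bases before the start. Adjacent bins were called in M0[CTR] from 54 contacts and in IFNG from 51, below every count of these loops. These are the smallest counts among all adjacent-bin calls of those lists, and the counts of the never exposed groups at these loops are unknown.

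**Figure D2:**
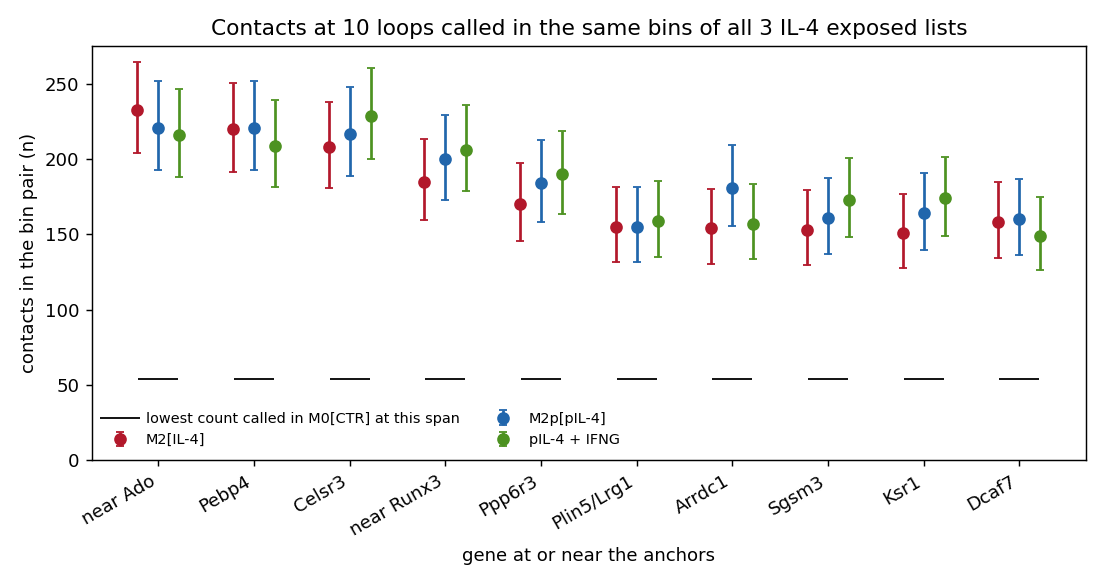
Contacts (y axis) at the 10 loops named by the rule among those called in the same bins of all 3 IL-4 exposed lists, with 95% Poisson intervals that cover counting error only, and the lowest count called in M0[CTR] at this span as a black line. The intervals of the 3 lists overlap at each loop, and all counts are above the line at 54 contacts, the smallest of all adjacent-bin calls in M0[CTR].

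Ranked by contacts relative to the median at their span in M2[IL-4], the chosen loops began with one on chromosome 7 between 139990001 to 140000000, which holds the start of the membrane metalloprotease gene Adam8, and 140060001 to 140070000 in Caly. It stood at 2.50 times the median with 120 contacts, and the other exposed lists matched it 1 and 2 bins off. The second, on chromosome 11 between 114750001 to 114760000 in Dnaic2 and 114870001 to 114880000 in Gprc5c, stood at 1.73 times with 64 contacts and lay beside the Cd300 family of myeloid receptors, with the Cd300a start 15 kb from its right anchor. It belonged to a group of 5 chosen loops of 36 to 64 contacts. The remaining 10 of the 12 loops ranked highest stood between 1.48 and 1.69 times the median. Among them were a loop of 214 contacts between the bins from 19610001 to 19630000 on chromosome 7, which hold Relb, a subunit of NF-kB, and a loop of 212 contacts on chromosome 11 between the start of Mfap4, a microfibril protein, and that of Mapk7, which encodes the kinase ERK5. A loop of 72 contacts after IL-4 and 57 after washout on chromosome 19 joined Sfxn2 to Cyp17a1, a gene of steroid synthesis. A loop of 105, 127 and 109 contacts on chromosome 17 ended near the somatostatin receptor gene Sstr5.

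The chosen loops were spread over all 19 autosomes, with shares of the M2[IL-4] loops from 0.76% on chromosome 11 (0.561 to 1.03) to 1.97% on chromosome 14 (1.41 to 2.76). When loops within 2 bins of each other were grouped, the 836 loops formed 689 groups, of which 578 held 1 loop and the largest 8. They fell in 469 of the 1658 windows of 1 Mb that held an M2[IL-4] loop, and 17 windows held 5 or more. The window with the most, chromosome 10 from 67000001 to 68000000, held 17 of them among 195 M2[IL-4] loops (8.72%). The next held 7. Shares were higher in some windows with fewer loops, such as chromosome 4 from 86000001 to 87000000, with 6 of 15 (40%).

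The window with the most chosen loops, on chromosome 10, surrounds Egr2 (ENSMUSG00000037868.15, plus strand, 67535475 to 67542188). Between 67300001 and 68000000 lay 16 chosen loops, in a stretch where M0[CTR] called 92 loops with both anchors inside it, IFNG 95, M2[IL-4] 152, M2p[pIL-4] 118 and pIL-4 + IFNG 133. All 3 IL-4 exposed lists held more loops here than both never exposed lists, and they were also the longer lists. These counts were not scaled to list length, which ran from 53273 in M0[CTR] to 67532 in M2p[pIL-4]. The largest group, 8 loops of 15 to 26 contacts, joined 67420001 to 67470000 with 67810001 to 67880000 and so reached across Egr2 and Ado. Between these stretches the never exposed lists called 0 loops, which the rule nearly requires, M2[IL-4] called 8 and each other exposed list 5. At their far ends lie the CTCF matches shown above. The leftmost points right and one of the right pair points left, but no chosen loop joined these 2 bins.

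The second group around Egr2 held 6 loops of 63 to 233 contacts between 67590001 and 67650000, to the right of both genes and outside any protein-coding gene. Here the never exposed lists again called 0 loops and each other exposed list 4. Besides the adjacent-bin loop of 233 contacts, the loop from 67590001 to 67650000 held 63, 64 and 63 contacts in the order given above, and the loop from 67600001 to 67650000 held 65, 65 and 70. The loop from 67600001 to 67630000 held 95 after IL-4 and 106 after washout and was matched 1 bin off in pIL-4 + IFNG. The loop from 67630001 to 67650000 held 206 after IL-4 and 211 after the later IFNG and was matched 2 bins off in M2p[pIL-4]. The loop from 67600001 to 67640000 held 72 after IL-4 and was matched 1 bin off in both other exposed lists. Where another exposed list called the same bins, its count was thus close to that after IL-4, and elsewhere no count is known. A further loop between adjacent bins, from 67550001 to 67570000, held 126 contacts in M2[IL-4] and 131 in pIL-4 + IFNG and began 6 kb from the Ado start. No chosen loop had an anchor on the Egr2 start itself. Within 100 kb of it lay 15 chosen loops, the most of any gene.

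**Figure D3:**
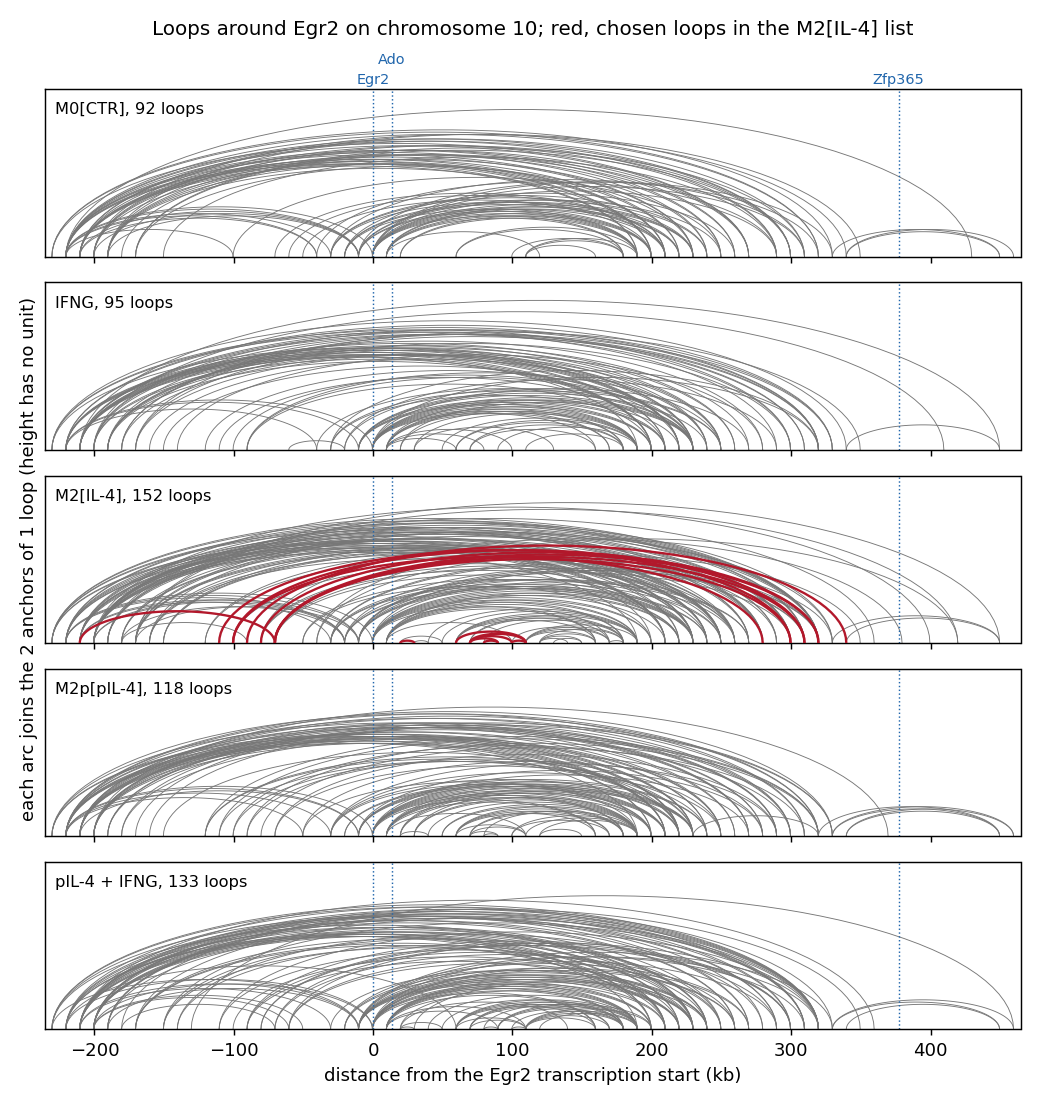
Loops with both anchors in a stretch of chromosome 10 around Egr2, by distance from its transcription start (x axis, kb), with 1 arc per loop, 1 panel per list and the starts of Egr2, Ado and Zfp365 as dotted lines. The 16 chosen loops, in red, form a long group across Egr2 and a short group downstream of it, in a stretch with 92 and 95 loops in the never exposed lists and 118 to 152 in the exposed ones. Counts are not scaled to list length.

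Around the coagulation factor genes F7 and F10 on chromosome 8, a stretch of 350 kb had, with both anchors inside it, 4 loops in M0[CTR] and 2 in IFNG, against 45 after IL-4, 29 after washout and 13 after the later IFNG. They summed to 157, 70, 2588, 1341 and 502 contacts. Each exposed list was above both never exposed ones, with the fewest loops after the later IFNG. Of the 45 M2[IL-4] loops, 29 lay within 2 bins of a never exposed loop, counting also loops not wholly inside the stretch. Of the other 16, M2p[pIL-4] matched 5 and pIL-4 + IFNG matched 4, and these 4 met the rule. All 3 inner ones began at 13010001 to 13020000 in Mcf2l, 11 kb from the F7 start. One reached 13060001 to 13070000, which holds the start of Proz, the cofactor of an inhibitor of factor X, with 54 contacts in M2[IL-4]. One reached 13070001 to 13080000 with 40 contacts both after IL-4 and after washout, and one reached 13130001 to 13140000 in Cul4a, a ubiquitin ligase scaffold, with 34 and 35. The fourth ran from 12990001 to 13000000, the bin with the CTCF matches shown above, to 13180001 to 13190000 in Grtp1, with 28 contacts.

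**Figure D4:**
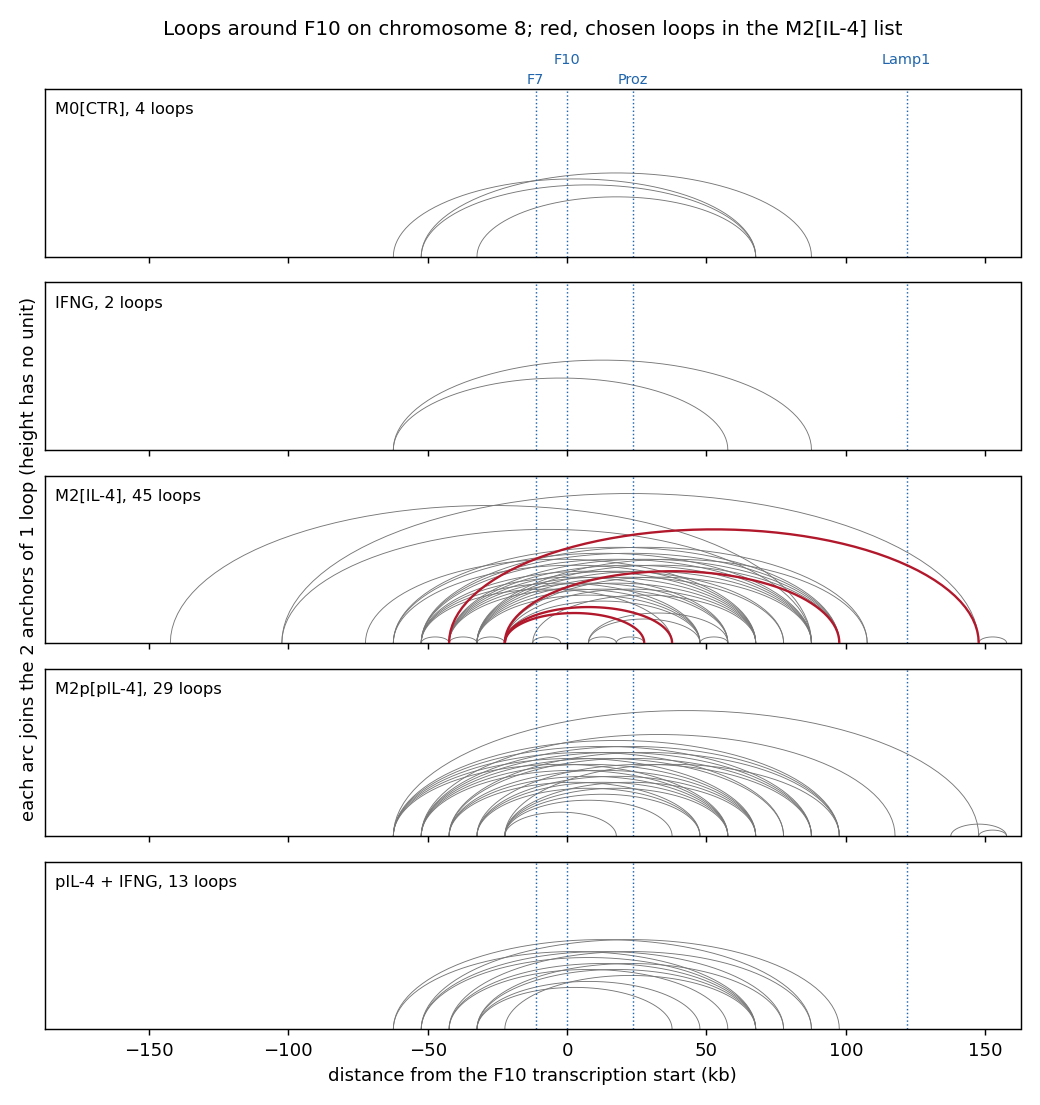
Loops with both anchors in a stretch of chromosome 8 around F10, by distance from its transcription start (x axis, kb), with 1 arc per loop, 1 panel per list and the starts of F7, F10, Proz and Lamp1 as dotted lines. The panels hold 4, 2, 45, 29 and 13 loops from top to bottom, and the 4 chosen loops are in red.

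At Klf4 (ENSMUSG00000003032.8, chromosome 4, minus strand, 55527143 to 55532466), a transcription factor of alternative polarization, a chosen loop joined the bin with its start, 55530001 to 55540000, to 55640001 to 55650000 upstream, outside any protein-coding gene. It held 39 contacts after IL-4 and 43 after washout, was matched 1 bin off in pIL-4 + IFNG, and had no never exposed loop within 10 bins. The neighbouring loop from 55540001 to the same right anchor held 50 contacts in M2[IL-4]. Counting only loops with both anchors in the 320 kb around Klf4, M2[IL-4] and M2p[pIL-4] had 4 each, pIL-4 + IFNG had 1 and the never exposed lists had 0. This contrast rests on that limit, since loops with either anchor within 100 kb of the Klf4 start numbered 66 in M0[CTR] and 92 in IFNG, against 105 to 116 in the exposed lists. Within the same distance lay 4 chosen loops and also 1 loop of the opposite set. The Klf4 start anchor held the pair of STAT6 motifs shown above.

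Ear2, Crebbp, Cd36 and Proz, of the gene lists below, also had their start in an anchor of a chosen loop. At Ear2 (ENSMUSG00000072596.4, chromosome 14, plus strand, 44102654 to 44103534), an eosinophil-associated ribonuclease gene induced by IL-4, the loop between 43920001 to 43930000, with the start of Ear10, and 44100001 to 44110000 held 20 contacts after IL-4 and 19 after washout. Its CTCF matches, shown above, point towards each other. The Ear genes are a family of near-identical copies, so reads may be placed wrongly there and this loop is uncertain. At Crebbp, a histone acetyltransferase and coactivator of STAT6, the loop from the start of the mitochondrial chaperone gene Trap1 (4070001 to 4080000 on chromosome 16) to 4210001 to 4220000 held 32 contacts in M2[IL-4] and was 2 bins off in both other exposed lists. The nearest never exposed loops were 3 bins off in M0[CTR], just past the limit of the rule, and 6 in IFNG. At Cd36, a scavenger receptor, the loop on chromosome 5 between 17880001 to 17890000 and 18040001 to 18050000 held 33 contacts after IL-4 and 29 after washout. Loops of both never exposed lists lay 3 bins from it. The left bin holds the outermost annotated start of Cd36, and the RefSeq start lies in another bin. The Proz loop is given above.

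Other groups of chosen loops lay away from the listed genes. Inside Dennd4c on chromosome 4, which encodes a regulator of Rab GTPases, 6 loops of 42 to 62 contacts lay between 86760001 and 86850000. With both anchors in the 250 kb around it, M0[CTR] had 0 loops, IFNG 1, M2[IL-4] 8, M2p[pIL-4] 6 and pIL-4 + IFNG 5. With either anchor within 100 kb of the Dennd4c start, the numbers were 7, 6, 15, 23 and 15. The one called in the same bins throughout, between 86790001 to 86800000 and 86830001 to 86840000, held 52, 56 and 57 contacts. A group of 3 loops on chromosome 4 between 126020001 and 126050000, at the G-CSF receptor gene Csf3r and Mrps15, held 104 to 173 contacts. Groups of 4 lay at Ak8 and Gtf3c4 on chromosome 2, at the secretory kinase gene Fam20c on chromosome 5, at Dnajc15 and Epsti1 on chromosome 14, and in stretches with no protein-coding gene on chromosomes 6 and 17. Myc, named here after its values were seen, had its start in an anchor of 2 chosen loops, of 28 contacts to 62220001 to 62230000 and of 16 contacts to 62410001 to 62420000 on chromosome 15, the latter with 17 in pIL-4 + IFNG.

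The chosen loops were set beside genes next. A chosen loop had an anchor on the start of 236 of 20780 autosomal protein-coding genes (1.14%), or 3.03% of the 7782 genes with any M2[IL-4] anchor on the start, and 2871 genes (13.8%) had one within 100 kb. The opposite set, of 317 loops against 836, reached 1184 genes (5.70%) within 100 kb. The sets differ in size and in rule, so these shares are not directly comparable. At the start, the numbers were 1 of 13 study-named genes, 2 of 31 IL-4-induced genes (Klf4 is in both), 1 of 24 genes of the IL-4 receptor and STAT6 pathway, 1 of 26 macrophage identity genes and 1 of 27 coagulation and complement genes. None of the 128 IFNG-induced, endotoxin-response, chromatin architecture, other immune cell or housekeeping genes had one, which allows a share of up to 2.34%. These counts are too few to set the lists apart from the 1.14% of all genes.

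Within 100 kb of the start, a chosen loop had an anchor at 8 of 13 study-named genes (61.5%, 35.5 to 82.3), which the study picked partly on these libraries and which are therefore not independent. The numbers were 13 of 27 coagulation and complement genes (48.1%, 30.7 to 66.0), 9 of 26 macrophage identity genes (34.6%, 19.4 to 53.8), 8 of 24 genes of the IL-4 receptor and STAT6 pathway (33.3%) and 10 of 31 IL-4-induced genes (32.3%, 18.6 to 49.9). Housekeeping genes stood at 8 of 28 (28.6%, 15.3 to 47.1), also above the 13.8% of all genes, with an interval that overlaps those of the IL-4 lists. IFNG-induced genes stood at 4 of 29 (13.8%) and endotoxin-response genes at 4 of 30 (13.3%). Genes of a list share loops where they are neighbours, as F7, F10 and Proz are, or C1qa, C1qb and C1qc. Study-named genes with a chosen loop also recur in other lists, which are thus not wholly independent either. Klf4, Itgax, F7, F10 and Slc7a2 are also IL-4-induced genes, and C3, Itgax, F7 and F10 are also coagulation and complement genes. Ciita is also an IFNG-induced gene, and Edn1 and Slc7a2 are also endotoxin-response genes.

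**Figure D5:**
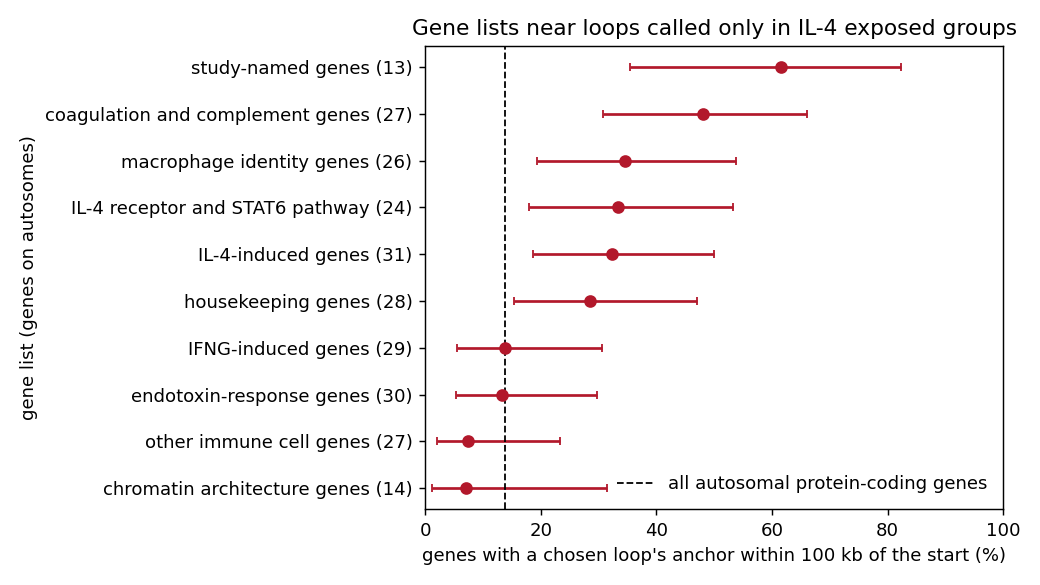
Share of the genes of each list (number of genes in brackets) with an anchor of a chosen loop within 100 kb of the transcription start, in percent with 95% Wilson intervals, and the 13.8% of all autosomal protein-coding genes as a dashed line. Housekeeping genes, at 28.6%, lie close to the IL-4 lists at 32.3% and 33.3%.

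The number of loops near a gene differs between lists, so the share of the M2[IL-4] loops near a list that were chosen loops was also taken. It was 1.41% (1.31 to 1.51) near all autosomal protein-coding genes, 3.33% (2.38 to 4.64) near IL-4-induced genes, with 33 of 991 loops, and 2.67% (1.84 to 3.85) near the IL-4 receptor and STAT6 pathway, with 27 of 1013. Egr2 is in both lists and decided both values. Without it they were 1.98% (1.25 to 3.1) and 1.29% (0.738 to 2.24), which the 1.41% lies within. Near the study-named genes the share was 3.33% (2.06 to 5.33), and 2.77% (1.59 to 4.78) without F7 and F10. It was 1.78% near coagulation and complement genes, 1.28% near macrophage identity genes, 0.793% near housekeeping genes and 0.686% near IFNG-induced genes, with intervals that include 1.41%.

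Of the pathway genes with a chosen loop nearby, Irs2, which links the IL-4 receptor to PI3 kinase, had 3 within 100 kb, and Socs2, a feedback inhibitor of cytokine receptors, had 2. Relative to its span, the strongest at Irs2 ran from 10570001 to 10580000 in Myo16 to 10900001 to 10910000 on chromosome 8, with 24 contacts, while a shorter one from 11050001 to 11180000 held 34. The strongest at Socs2 by the same measure ended in the gene body with 24 contacts. Irf4, the transcription factor, had 2, of which the stronger joined 30600001 to 30610000 with 30660001 to 30670000 in Dusp22 on chromosome 13 with 62 contacts. Slc7a2, the arginine transporter, had 3, and the strongest joined Mtmr7 to the Slc7a2 gene body with 17 contacts after IL-4 and 18 after washout. Loops with an anchor within 100 kb of the Slc7a2 start numbered 12 in M2[IL-4] and 4 or 5 in each of the other lists. F13a1, which encodes the A subunit of factor XIII, had 1 loop that began in its body, with 34 contacts in M2[IL-4] and 26 in pIL-4 + IFNG. Within 100 kb of Tyk2, a JAK kinase of the receptor, 1 loop joined Keap1 to the bin with the Qtrt1 start. It held 42 and 37 contacts in those lists.

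Sequence features of the anchors, which the rule did not use, were compared last. A transcription start lay in an anchor of 25.1% of the chosen loops (22.3 to 28.2) and 29.3% of all M2[IL-4] loops (28.9 to 29.6). Among loops of 20 to 190 kb the shares of the chosen loops and of all were 26.9% (22.6 to 31.7) and 36.1% (35.5 to 36.6). M2[IL-4] loops of that span matched in no other list stood at 28% (24.6 to 31.6). For adjacent bins the chosen loops and all loops both stood at 42.0%. Of the 836 loops, 172 (20.6%) touched no protein-coding gene with either anchor. A CTCF consensus match lay in both anchors of 13.6% of the chosen loops (11.5 to 16.1), 11036 of all 58117 M2[IL-4] loops (18.7 to 19.3%), 20.3% of those matched in all 5 lists and 12.9% (9.68 to 17.1) of the opposite set. Matches that point towards each other were found in 8.25% (6.57 to 10.3) of the chosen loops and 10.5% (10.3 to 10.8) of all. M2[IL-4] loops matched in no other list stood at 10.2% (9.09 to 11.4) for both anchors and 4.62% (3.88 to 5.49) for this direction. In the 20 to 190 kb class, both anchors matched in 15.2% (11.9 to 19.2) of the chosen loops and 6555 of all 29803 (21.5 to 22.5%). Those matched in no other list stood at 16.5% (13.8 to 19.6) there, and the opposite set at 18.1% (10.9 to 28.5). Shares below that of all loops were thus not particular to the chosen loops. Loops that share anchors are not independent, and the intervals cover counting error only.

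The STAT6 motif lay in 94.1% of the 1524 anchor bins of the chosen loops and 92.4% of all 42071 anchor bins of M2[IL-4], with means of 2.77 and 2.74 matches per bin. A motif this short is found in most bins of 10 kb. In the 250 bases before a RefSeq start it was found in 5.9% (3.89 to 8.85) of 356 promoters whose start lay in such an anchor and in 5.9% (5.65 to 6.17) of 31396 autosomal promoters. The AP-1 motif, TGANTCA, had means of 3.22 and 3.11 per bin, and the PU.1 motif, GAGGAAGT, 0.667 and 0.681. The GC content of the bins had a median of 45.4% and 45.5%, and the sites of MboI, the enzyme that cut the chromatin, a median of 24 per bin in both.

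As anchors, the bins were often in use without IL-4. In M0[CTR], both anchors of 31.7% of the chosen loops (28.6 to 34.9) served other loops and neither did in 19.3% (16.7 to 22.1), and in IFNG the shares were 32.4% and 19.1%. For all M2[IL-4] loops, both anchors served loops in M0[CTR] in 76.3% of cases. The rule requires that no loop of these lists lie close by and so lowers these shares.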

How the data were processed

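Hi-C of 10 samples in 5 groups was analysed as 1 deposited loop list per group of 2 replicates. In the methods, reads were mapped to mm10 through the nf-core Hi-C workflow (Bowtie2 inside HiC-Pro) and HICCUPS called loops on coarser bins. The submitters' processing notes also name FastQC, HOMER and Juicer. The deposited lists give bin pairs of 10 kb with whole-number counts of contacts, and the caller and threshold behind them are not given in the sources used here. The depth of each sample is not in the files, which hold only the called part of each library. Intervals cover counting error only.

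Loops were matched by bin distance. Relative strength divided a loop's count by the median of all loops of equal span in that list. Genes were protein-coding genes of GENCODE M21. Distances to a start ran from bin centres. Motifs were searched on both strands of GRCm38, CTCF as a consensus of 14 bases with at most 1 mismatch. Matching and motif search were tested on simulated data. The named loops were the 12 with the highest strength, the 10 with the highest lowest count among those called in the same bins of all 3 exposed lists and the 10 largest groups, 1 per group, besides loops at listed genes. Other genes are named only to place an anchor. The members, lists and rules were chosen with earlier results of these data known. The work used Python 3.11.15 with pandas 2.3.3 and numpy 2.4.6, scipy 1.17.1 for intervals, and matplotlib 3.10.9 for plots. Alternatives were other distances, base lists and list lengths, joined bin pairs and the X chromosome.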

Additional observations from a re-analysis of the deposited data

How the results depend on the processing

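No paired analysis was possible because the 2 replicates of a group share 1 list, which also left no replicate to omit. Over 9 results, 42 of 73 alternative values left a count within 1.5 times, or a share or median within its 95% interval, and 31 did not. Causes were not tested unless the alternative's construction shows them. The number of loops (836) became 2216 in the same bins, where never exposed neighbours no longer exclude a loop, 420 within 5 bins, 533 with equal list lengths and 187 with no never exposed loop within 5 bins. With the X chromosome it was 838. As a share of the list, 1.44% became 3.81%, 2.12% within 1 bin, 0.723%, 1.0% and 0.322%, and 1.3% with the lines of either M2p[pIL-4] or pIL-4 + IFNG and 3.56% with touching bin pairs joined. The median span of 175 kb became 140 kb in the same bins, 150 kb within 1 bin, 200 kb within 5 bins and 150 kb with no never exposed loop within 5 bins. The share called in the same bins of all 3 exposed lists, 10.4%, became 100% by construction, 14.3%, 8.33% and 18.7% under these 4. The log2 ratio of M2p[pIL-4] to M2[IL-4], 0.008, became 0.073 within 5 bins and 0.066 with no never exposed loop within 5 bins. The ratio between the last pair of exposed groups, pIL-4 + IFNG over M2p[pIL-4], 0.010, became -0.031 in the same bins. Starts in an anchor (25.1%) became 31.0% in the same bins, and CTCF matches in both anchors (13.6%) became 17.8% there and 17.1% with no never exposed loop within 5 bins. Listed genes with an anchor at the start, 5, became 27 in the same bins, 18 within 1 bin, 3 with the lines of pIL-4 + IFNG, 3 with equal list lengths and 2 with no never exposed loop within 5 bins. The equal-length order of patterns and the shares near gene lists without Egr2, Klf4 or F7 and F10 were chosen after seeing the data. Without Klf4 the share near study-named genes was 3.29%.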

Other observations

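The 73 chosen loops with no never exposed loop within 10 bins had a median span of 170 kb and a median of 27 contacts. The loops named here were picked from them after their values were seen. Inside Chmp7 on chromosome 14, which encodes a subunit of the membrane-remodelling ESCRT machinery, a loop between adjacent bins held 104 contacts after IL-4, 115 after washout and 103 after the later IFNG. On chromosome 12, a loop ended in the bin with the starts of Cog5 and Dus4l and held 31, 37 and 44. Inside Mgll, the monoacylglycerol lipase gene on chromosome 6, a loop of adjacent bins held 146 contacts after IL-4 while both other exposed lists placed it in neighbouring bins. At the sterol synthesis gene Sqle on chromosome 15, loops to Washc5 held 72 and 51 contacts after IL-4.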
